A study of Mus musculus with 18 samples.

Results

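The 33 genes described here encode the innate immune receptors of the liver and the proteins that carry their signal: the Toll-like receptors (TLRs), their co-receptors, adaptors and kinases, the inflammasomes, the NOD receptors and the cytosolic DNA sensing pair cGAS and STING. They were chosen by gene symbol from the 35441 genes of the table. All 33 had more than 100 reads summed over the 18 mice and were therefore among the 14533 genes tested. Gene expression was measured by poly(A) RNA sequencing of whole liver from wild-type (WT) mice, from mice that lack lysosomal acid lipase (Lipa-/-), and from Lipa-/- mice given rAAV8.hAAT.LIPA, an adeno-associated virus of serotype 8. Each of the 3 kinds is labelled with 12-weeks and with 34-weeks post-injection, with 3 separate mice per group. Per the study, most untreated Lipa-/- mice of the 34-weeks group did not live to that time and were killed on reaching set endpoints. The labels do not tell these mice apart. The 34-weeks comparisons with untreated Lipa-/- mice may therefore not be at equal times. The labels give the time points as 3 and 8 months, which were taken to be the 12-weeks and 34-weeks of the study.

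In the Lipa-/- line exon 4 of Lipa is deleted in the whole body, so that leucocytes and hepatocytes alike lack the enzyme. The virus carries human LIPA under hAAT, a promoter active in hepatocytes, and was injected into the tail vein at 10 to 12 weeks of age. The treated mice therefore still carry the deletion in every cell. The labels give no dose. Within the 34-weeks time point all mice carry 1 study code, and at 12-weeks all but the untreated Lipa-/- mouse 5 carry another, so time point and study code cannot be told apart.

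Between 17527848 and 25833134 reads were assigned per mouse, and a count of 3 reads corresponded to between 0.0946 and 0.291 CPM, the count scaled to the size of the library. Murine Lipa lay between 202 and 323 CPM in WT mice, between 16.7 and 33.4 CPM in untreated Lipa-/- mice and between 29.1 and 37 CPM in treated mice, and human LIPA between 523 and 2746 CPM in treated mice and at most 0.906 CPM in any other mouse. Hepatocyte markers summed to between 23570 and 112700 CPM in every liver. In several groups 1 mouse often held the highest or lowest value. Treated mouse 12 at 34-weeks had the highest value of its group for 20 of the 33 genes and treated mouse 11 the lowest for 23. At 12-weeks WT mouse 2 was highest for 22, and WT mouse 3 and Lipa-/- mouse 5 were lowest for 20 each. WT mouse 3 of 34-weeks was lowest for 19. The summed neutrophil markers of treated mouse 12 at 34-weeks reached 834.5 CPM where the lowest treated mouse was at 2.79 CPM.

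TLRs are membrane receptors that recognise microbial and self-derived molecules, some at the cell surface and others from within endosomes and lysosomes, the compartment in which lysosomal acid lipase works. Most of them signal through the adaptor MyD88 and the IRAK kinases to NF-kB, and TLR3 and endocytosed TLR4 signal through TRIF. Inflammasomes assemble in the cytosol from a sensor, the adaptor ASC and caspase-1, and lead to the cutting of interleukin precursors and of gasdermin D, the pore-forming protein. In the liver, macrophages, neutrophils and dendritic cells carry much of this machinery, although hepatocytes also express several of its components.

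The promoters of 4 genes are shown because their transcripts followed the main patterns of the data. Tlr13 had the largest fold change of the TLRs, Casp4 was raised over WT in untreated and in treated Lipa-/- mice at 12-weeks, Nlrp3 was raised over WT in untreated mice and not called in treated ones, and Tlr5 fell. Each sequence holds the 250 bases before the transcription start of a RefSeq transcript, read 5′ to 3′ on the plus strand of GRCm38.p6, at chrX:106143025-106143274 for Tlr13, chr9:5308599-5308848 for Casp4, chr11:59542436-59542685 for Nlrp3 and chr1:182954538-182954787 for Tlr5. Capitals mark matches, on either strand, to the letters GAGGAA, the core that PU.1 of the myeloid lineage binds, and to an NF-kB motif, GGG followed by 2 bases of any kind and TTTCC.
Tlr13: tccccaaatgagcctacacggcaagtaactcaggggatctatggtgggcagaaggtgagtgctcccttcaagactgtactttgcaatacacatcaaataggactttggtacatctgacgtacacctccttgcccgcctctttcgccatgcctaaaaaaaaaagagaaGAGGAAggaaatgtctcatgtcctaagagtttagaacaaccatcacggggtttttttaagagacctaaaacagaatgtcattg
Casp4: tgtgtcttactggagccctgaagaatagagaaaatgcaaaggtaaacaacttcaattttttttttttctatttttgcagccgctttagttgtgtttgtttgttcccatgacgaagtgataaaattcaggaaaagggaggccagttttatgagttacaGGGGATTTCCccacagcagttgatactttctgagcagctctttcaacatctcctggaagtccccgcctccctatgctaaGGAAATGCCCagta
Nlrp3: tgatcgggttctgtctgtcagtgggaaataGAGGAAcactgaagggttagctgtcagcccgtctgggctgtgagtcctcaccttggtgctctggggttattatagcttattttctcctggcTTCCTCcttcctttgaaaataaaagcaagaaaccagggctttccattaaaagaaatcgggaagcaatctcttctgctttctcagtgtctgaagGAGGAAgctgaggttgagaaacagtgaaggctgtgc
Tlr5: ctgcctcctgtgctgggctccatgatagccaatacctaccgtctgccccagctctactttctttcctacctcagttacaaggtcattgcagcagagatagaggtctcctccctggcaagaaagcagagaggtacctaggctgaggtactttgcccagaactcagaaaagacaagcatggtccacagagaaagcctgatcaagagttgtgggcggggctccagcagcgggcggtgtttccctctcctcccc
The Tlr13 sequence held 1 match to GAGGAA, the Nlrp3 sequence 3, of which 1 on the minus strand, and the Casp4 sequence 2 matches to the NF-kB motif, of which 1 on the minus strand. Another Nlrp3 window, at chr11:59541319-59541618, held 0 matches to GAGGAA. The Tlr5 sequence held no match to either. Over windows that also include the 50 bases after the start, 25 of the 33 genes were matched, with 33 of the 32851 windows of all genes. GAGGAA was found in 10 of the 33 windows of these genes and in 28.3% of all windows, and the NF-kB motif in 3 windows, of Tlr3 and Casp4, and in 1.63% of all. The Casp4 windows, from 5308599 and from 5308610, overlap and hold the same sites. The ISRE motif of interferon-responsive genes, GAAA on each side of 2 bases of any kind, was found in the windows of Tlr6 and Myd88 and in 3.44% of all windows, and TCACGTGA, bound by the lysosomal regulator TFEB, in 0 windows of these genes and in 0.974% of all. The windows of Tlr4, Tlr7, Cd14, Ly96, Ticam2, Gsdmd, Ripk2 and Sting1 were not used here.

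The comparison of untreated Lipa-/- with WT livers asked how the loss of the enzyme was reflected in these genes. A gene was called when its adjusted p in edgeR's quasi-likelihood test was under 0.05, over all 14533 tested genes, and its log2 fold change was above 1 or below -1. At 12-weeks 21 of the 33 genes were higher in untreated Lipa-/- livers and 1 was lower, against 20.2% and 9.06% of all tested genes, and at 34-weeks 18 were higher and 2 lower, against 20.5% and 15.7%. The median log2 fold change of the 33 genes was 2.50 at 12-weeks and 2.42 at 34-weeks, beside 0.02 and -0.03 over all tested genes. With limma on log2(TPM + 0.5), a scale that understates the change of low genes, it was 1.17 and 1.27, beside 0.37 and 0.54 over all tested genes. In 25 genes every Lipa-/- mouse lay above every WT mouse at 12-weeks and in 21 at 34-weeks, against 28.6% and 30.5% of all tested genes. The increase was uneven between the roles. At both time points it covered Tlr1, Tlr2, Tlr4, Tlr6, Tlr7, Tlr8 and Tlr13, the co-receptor gene Cd14, Ticam2, Irak3, Nlrp3, Aim2, Pycard, Casp1, Casp4, Nod2, Cgas and Sting1, whereas Tlr3, Myd88, Tirap, Ticam1, Irak1, Irak2, Irak4, Gsdmd, Nod1 and Ripk2 were not called at either.

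**Figure D1:**
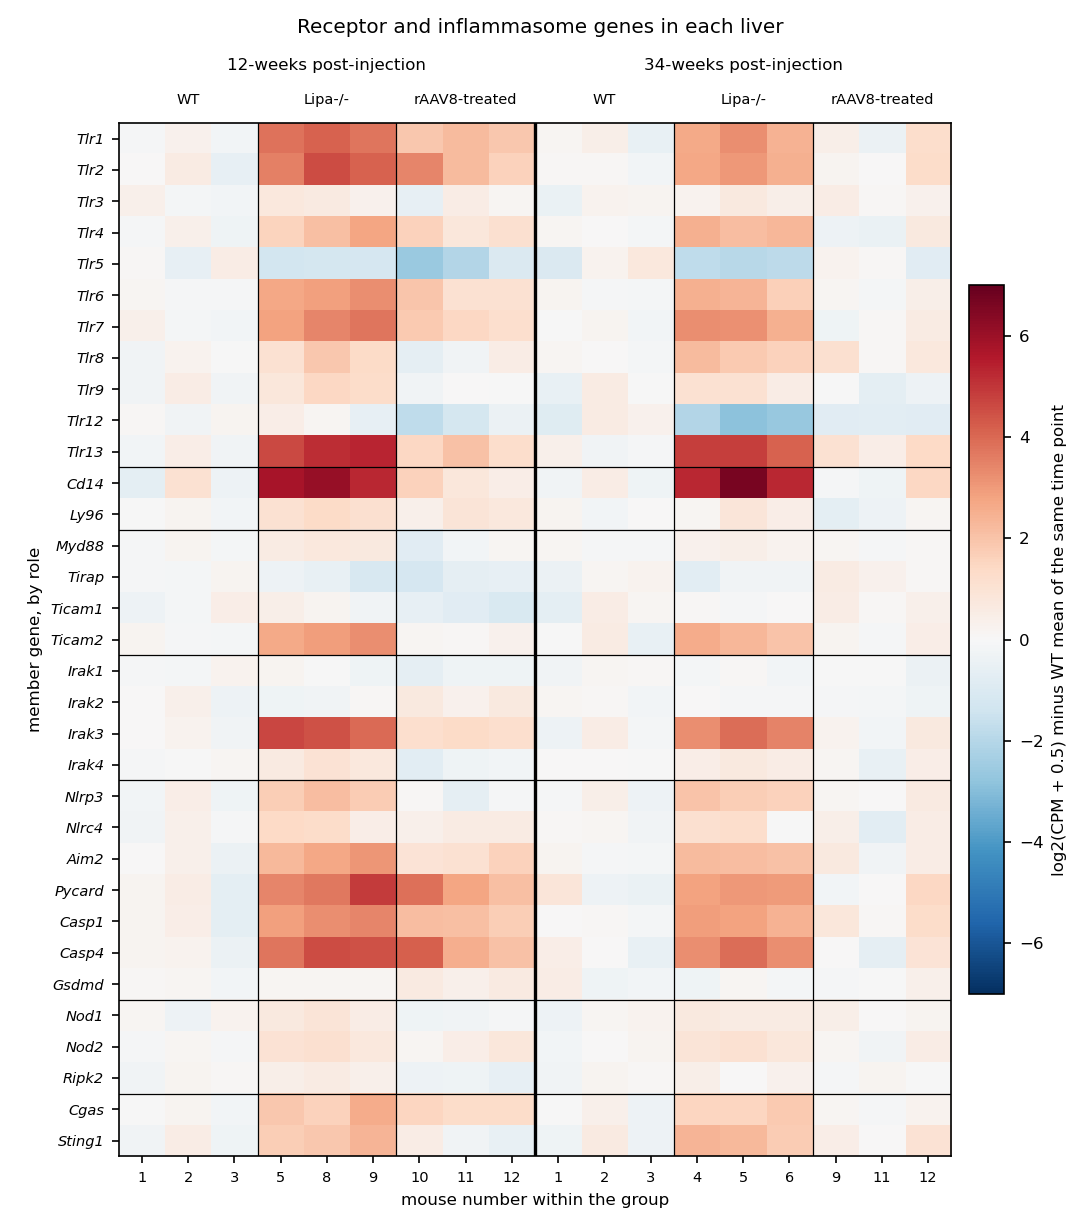
Each row is 1 of the 33 genes, grouped by role, and each column 1 mouse; colour gives log2(CPM + 0.5) minus the mean of the WT mice of the same time point. Cd14 and Tlr13 are the darkest red rows in the 6 untreated Lipa-/- mice, while Tlr5 and, at 34-weeks, Tlr12 are blue.

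These libraries are of whole liver, in which more cells of a type and more RNA per cell cannot be told apart. The summed CPM of 10 macrophage markers lay between 75.4 and 174.8 in WT and between 2612 and 6241 in untreated Lipa-/- mice at 12-weeks, and between 132.8 and 273 and between 2268 and 3758 at 34-weeks, with 9 of the 10 markers called higher at each time point and none at 0. All 7 markers of lipid-associated macrophages were called higher at both. Neutrophil markers summed to between 2.63 and 2.97 CPM in WT mice at 12-weeks, with Ngp, Camp, Ly6g and Mpo at 0, and to between 134.6 and 1712 CPM in untreated Lipa-/- mice, the highest being mouse 9. At 34-weeks they lay between 1.95 and 7.55 CPM in WT mice, with Camp and Ly6g at 0, and between 114.5 and 299.8 CPM in untreated Lipa-/- mice. Of the 8 Kupffer cell markers 2 were higher and 3 lower at 12-weeks, and 5 were lower at 34-weeks, and 4 and 6 of the 8 hepatocyte markers were lower. Cholangiocyte markers summed to between 29.4 and 58.7 CPM in WT and between 453 and 2233 CPM in untreated Lipa-/- mice at 12-weeks, with 3 of 5 called higher, and all 5 were higher at 34-weeks. Most of the 12-weeks sum in untreated Lipa-/- mice was Spp1, at 397, 583 and 2206 CPM, which is also in the list of lipid-associated macrophage markers. Epcam and Sox9 were higher with no overlap at 12-weeks, while the groups overlapped for Krt19 and Krt7. Of 6 stellate cell markers 3 and 4 were higher and 1 and 2 lower, of 6 tested T and NK cell markers 4 and 3 were higher, and of 3 tested markers of plasmacytoid dendritic cells 2 were higher at each time point. Of 6 markers of sinusoidal endothelial cells 1 was higher and 3 lower at each time point, of 5 of conventional dendritic cells 1 and 0 were higher, and of 5 of B cells 1 was higher at 12-weeks and 1 lower at 34-weeks. The part of these shifts in the changes of the 33 genes was not tested.

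Among the TLRs of the cell surface, Tlr2 and its partners Tlr1 and Tlr6, with which it forms the receptors for lipopeptides, rose together. Tlr2 was measured at 1.29, 2.15 and 0.681 CPM in the WT mice and at 20.1, 41.9 and 30.4 CPM in the untreated Lipa-/- mice at 12-weeks, and at 2.89, 2.88 and 2.30 CPM and 20.3, 25 and 17.3 CPM at 34-weeks. The lowest Lipa-/- mouse was well above the highest WT mouse at each time point. The fold change was 22.2 at 12-weeks (log2 4.47 ± 0.54 SE, adjusted p = 6.81e-06) and 7.76 at 34-weeks (log2 2.96 ± 0.49, adjusted p = 0.000122). Tlr1 rose 29.9-fold and 8.97-fold, from between 0.314 and 0.622 CPM in WT mice to between 11.8 and 15.5 CPM at 12-weeks, and Tlr6 rose 24.8-fold and 7.77-fold, from between 0.144 and 0.268 CPM to between 4.01 and 5.94 CPM. The 12-weeks fold of Tlr6 rests on WT values of between 3 and 5.00 estimated reads per mouse. Tlr1 and Tlr6 are neighbours on chromosome 5 (GRCm39, 65082022 to 65090941 and 65108704 to 65203497, minus strand) and near copies in part. Of the 31-base stretches of Tlr1 transcripts, 17.8% also occurred in Tlr6, so part of their reads could have been assigned to the other gene.

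Tlr4, the receptor for lipopolysaccharide, and Cd14, which hands that ligand to it, rose by unequal amounts. Cd14 was at 1.02, 4.69 and 1.41 CPM in WT mice and at 132, 170 and 93.7 CPM in untreated Lipa-/- mice at 12-weeks. At 34-weeks the values were 2.18, 4.06 and 2.06 CPM and 121, 314 and 122 CPM, mouse 5 being the highest of all mice. The groups were apart at both time points, and the fold change was 55.0 (log2 5.78 ± 0.69, adjusted p = 6.81e-06) and 66.6 (log2 6.06 ± 0.70, adjusted p = 3.33e-06). Tlr4 rose 6.38-fold and 7.12-fold, from 0.911, 1.44 and 0.733 CPM to 3.94, 6.06 and 9.82 CPM at 12-weeks. Ly96, which encodes MD-2, the ligand-binding partner of TLR4, rose 2.45-fold at 12-weeks (log2 1.29 ± 0.28, adjusted p = 0.00164) and at 34-weeks differed by 0.57 on the log2 scale, with a 95% interval from -0.02 to 1.16 and overlapping groups.

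Of the TLRs that read nucleic acids inside the cell, Tlr13, a receptor for bacterial ribosomal RNA that humans lack, changed most. Its level was 0.268, 0.718 and 0.262 CPM in WT mice and 21.1, 32 and 35.2 CPM in untreated Lipa-/- mice at 12-weeks, and 1.30, 0.670 and 0.817 CPM and 39.9, 40.4 and 24.2 CPM at 34-weeks. No Lipa-/- mouse came near the WT range. The increase was 68.8-fold (log2 6.10 ± 0.46, adjusted p = 7.76e-08) and 38.1-fold (log2 5.25 ± 0.43, adjusted p = 1.49e-07). Tlr7 and Tlr8, receptors for single-stranded RNA that lie side by side on the X chromosome (GRCm39, 166086758 to 166113605 and 166024184 to 166047325, minus strand), both rose. Tlr7 rose 19.3-fold and 11.9-fold, from between 0.366 and 0.750 CPM to between 6.35 and 12.5 CPM at 12-weeks, and Tlr8 rose 5.67-fold and 9.71-fold, with WT values between 0.156 and 0.431 CPM over both time points.

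Tlr9, the receptor for unmethylated DNA, was at the edge of detection. It had 0, 7 and 0 reads in the WT mice and 15, 29 and 24 reads in the untreated Lipa-/- mice at 12-weeks. The ratio of the summed reads, scaled to library size, was 7.24 with an exact interval from 3.33 to 18.7, which covers counting error only. Tlr9 was called higher at 12-weeks (adjusted p = 0.0344), but the call was lost without WT mouse 1 (0.116), WT mouse 3 (0.111), Lipa-/- mouse 8 (0.0817) or Lipa-/- mouse 9 (0.0633), adjusted p in parentheses. At 34-weeks the Tlr9 difference was 1.53 on the log2 scale with a 95% interval from -0.33 to 3.39. Tlr3, the receptor for double-stranded RNA, lay between 2.30 and 3.70 CPM in WT and between 3.52 and 4.90 CPM in untreated Lipa-/- mice at 12-weeks, with overlapping groups and a log2 difference of 0.61 (95% interval -0.07 to 1.30), and of 0.46 (-0.21 to 1.13) at 34-weeks.

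Tlr5 and Tlr12 moved the other way. Tlr5, the receptor for bacterial flagellin, was at 3.32, 1.87 and 4.61 CPM in WT mice and at 0.994, 1.05 and 1.09 CPM in untreated Lipa-/- mice at 12-weeks, and at 2.42, 6.42 and 9.42 CPM and 1.20, 1.00 and 1.14 CPM at 34-weeks. The 6 Lipa-/- values were close to each other and below the whole WT range of their time point. Tlr5 was 3.11-fold lower at 12-weeks (log2 -1.64 ± 0.56, adjusted p = 0.027) and 5.46-fold lower at 34-weeks (log2 -2.45 ± 0.56, adjusted p = 0.00167). The 12-weeks call of Tlr5 was lost when total counts served for scaling and without WT mouse 1 (adjusted p = 0.0578), WT mouse 3 (0.110) or Lipa-/- mouse 5 (0.0686), 8 (0.0677) or 9 (0.0595). Tlr12, a receptor for the profilin of protozoan parasites, was at 5.25, 3.97 and 5.55 CPM in WT mice and at 7.06, 5.32 and 3.15 CPM in untreated Lipa-/- mice at 12-weeks, with overlapping groups and a log2 difference of 0.08 (95% interval -0.78 to 0.93). At 34-weeks Tlr12 was at 10.7, 29.1 and 24.6 CPM in WT and at 4.35, 2.24 and 2.68 CPM in untreated Lipa-/- mice, 6.92-fold lower with no overlap (log2 -2.79 ± 0.42, adjusted p = 4.98e-05).

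In the main fit none of the adaptors and kinases that most TLRs share passed both thresholds, while a pair of their more specialised relatives rose. Myd88, the common adaptor, lay between 13.5 and 17.1 CPM in WT and between 22.8 and 25.3 CPM in untreated Lipa-/- mice at 12-weeks, and its log2 difference of 0.69 (adjusted p = 0.0126) did not reach the fold threshold. Tirap, which bridges TLR2 and TLR4 to MyD88, differed by -0.67 and -0.43 on the log2 scale, and Ticam1, which encodes TRIF, by 0.11 and -0.08 at 12-weeks and 34-weeks. The kinase gene Irak4 lay between 7.98 and 9.27 CPM in WT and between 13.4 and 17.4 CPM in untreated Lipa-/- mice at 12-weeks, and between 9.50 and 9.85 CPM and 13.8 and 15.7 CPM at 34-weeks. The groups did not overlap, and its log2 differences of 0.82 (adjusted p = 0.00883) and 0.59 (adjusted p = 0.0439) stayed under the fold threshold. The kinase genes Irak1 and Irak2 differed by between -0.19 and -0.04. With total counts the median of all tested genes moved to 0.49 at 12-weeks and 0.60 at 34-weeks, and the differences of Irak1 and Irak2, and at 34-weeks of Ticam1, Tirap and Gsdmd, turned positive. Of the 33 genes 25 were then called higher at 12-weeks and 23 at 34-weeks, in place of 21 and 18. Whether genes near the fold threshold, such as Myd88 and Irak4, pass it can therefore depend on the scaling.

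Irak3, which encodes IRAK-M, an inhibitor of TLR signalling made by myeloid cells, was at 0.482, 0.670 and 0.314 CPM in WT mice and at 24.1, 21.3 and 14.8 CPM in untreated Lipa-/- mice at 12-weeks, and at 1.00, 2.33 and 1.25 CPM and 17.8, 28.5 and 20.8 CPM at 34-weeks. The groups were apart at both time points. Irak3 rose 40.4-fold (log2 5.34 ± 0.41, adjusted p = 8.55e-08) and 14.5-fold (log2 3.85 ± 0.36, adjusted p = 5.06e-07). Ticam2, which encodes TRAM, the adaptor between endocytosed TLR4 and TRIF, rose 22.5-fold and 9.07-fold, from between 0.157 and 0.322 CPM to between 3.97 and 6.43 CPM at 12-weeks. The 12-weeks fold of Ticam2 rests on 6, 4 and 3 reads in the WT mice. The value of Ticam2 is also uncertain, since 64.8% of its 31-base stretches also occurred in Tmed7, a gene with overlapping exons on the same strand. Stretches shared with other genes also made up 23% for Irak2, 17.9% for Nlrc4, 14% for Myd88, 13.9% for Nod2 and 13.8% for Irak4.

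**Figure D2:**
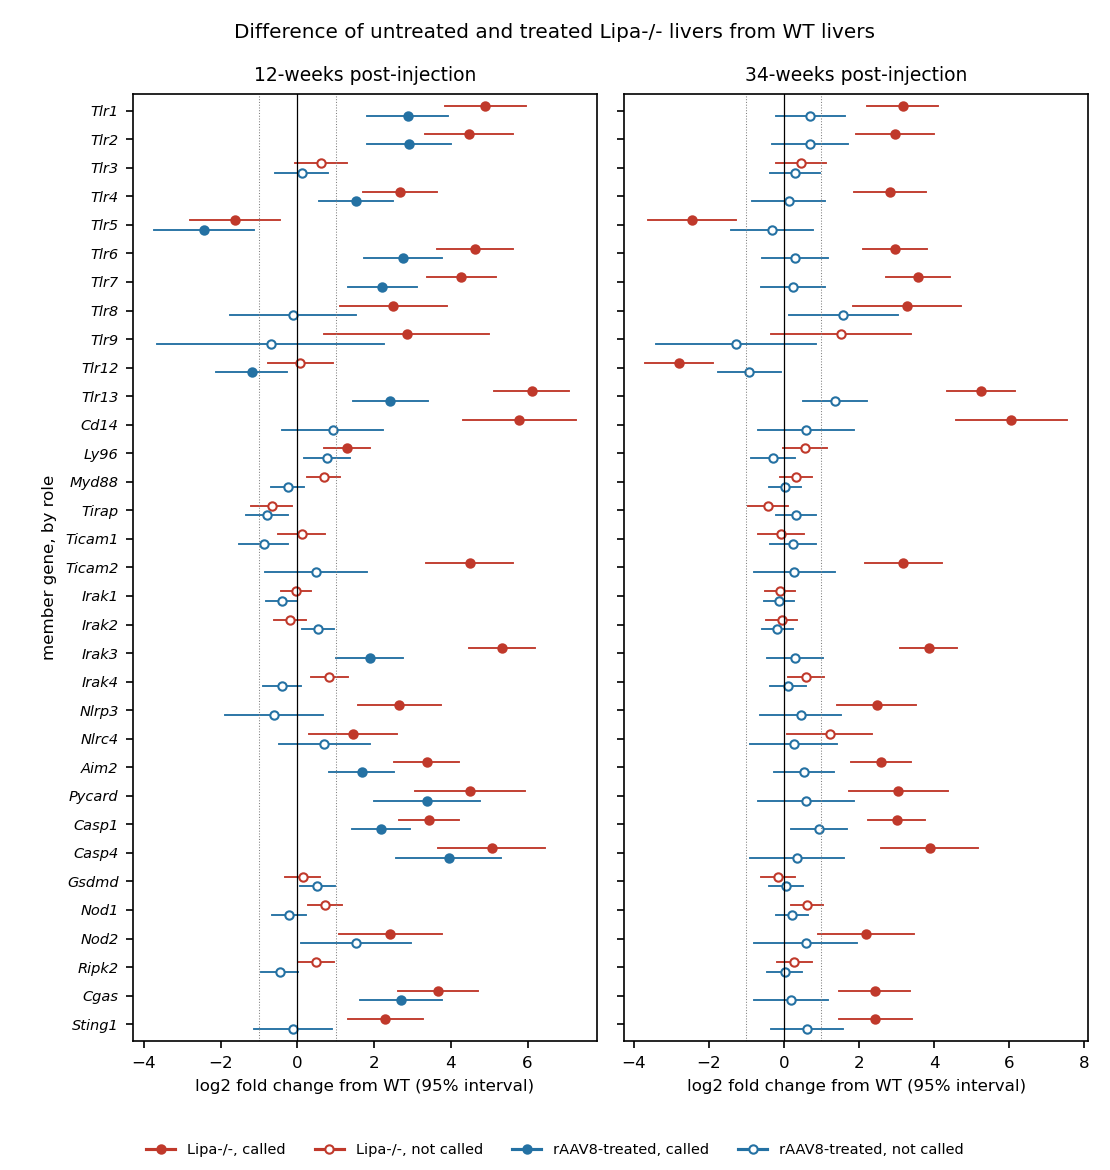
Points give the log2 fold change of each gene from WT mice at 12-weeks (left) and 34-weeks (right) in untreated (red) and treated (blue) Lipa-/- mice, lines the 95% interval of the fit, and filled points the called genes. At 34-weeks no blue point is filled, whereas at 12-weeks 14 are, 12 to the right and 2 to the left.

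Among the inflammasome genes the adaptor, both caspases and the sensors Nlrp3 and Aim2 rose at both time points, and the pore former Gsdmd was not called. Casp4, which encodes the caspase that binds lipopolysaccharide in the cytosol, was at 0.750, 0.814 and 0.314 CPM in WT mice and at 14.3, 25.7 and 23.6 CPM in untreated Lipa-/- mice at 12-weeks, a 33.4-fold increase (log2 5.06 ± 0.66, adjusted p = 1.69e-05), and rose 14.7-fold at 34-weeks. Casp1, its neighbour on chromosome 9 (GRCm39, Casp1 at 5298508 to 5307290 and Casp4 at 5308828 to 5336783, plus strand), rose 10.7-fold, from 1.98, 2.54 and 0.838 CPM to 15.1, 20.2 and 22.6 CPM, and 8.01-fold at 34-weeks. Pycard, which encodes ASC, rose 22.6-fold and 8.28-fold, and was highest in Lipa-/- mouse 9 at 12-weeks, at 52.2 CPM beside 18.2 and 21.6 CPM. That mouse was also the one with the highest neutrophil markers, and whether this bears on Pycard was not tested. None of these groups overlapped.

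Of the sensor genes Nlrp3 and Aim2 rose at both time points and Nlrc4 was called at 12-weeks. Nlrp3, which senses a wide range of cell stress including lysosomal damage, was at 0.322, 0.814 and 0.262 CPM in WT mice and at 2.63, 3.61 and 2.71 CPM in untreated Lipa-/- mice at 12-weeks, and rose 6.28-fold (log2 2.65 ± 0.51, adjusted p = 0.000629) and 5.55-fold at 34-weeks. Aim2, the sensor of cytosolic double-stranded DNA, rose 10.3-fold and 5.96-fold, from between 0.366 and 1.00 CPM to between 5.07 and 9.38 CPM at 12-weeks. Nlrc4, which assembles with NAIP proteins, was at 0.589, 1.20 and 0.733 CPM and 2.91, 2.76 and 1.29 CPM at 12-weeks. It was called there (2.75-fold, adjusted p = 0.042), but not without WT mouse 1 (0.139), WT mouse 3 (0.112), Lipa-/- mouse 5 (0.114), Lipa-/- mouse 8 (0.108), treated mouse 11 (0.0501), treated mouse 12 (0.0548) or Lipa-/- mouse 4 of 34-weeks (0.053), adjusted p in parentheses. At 34-weeks Nlrc4 was not called (log2 1.22, 95% interval 0.08 to 2.36), mouse 6 lying at 0.772 CPM beside 2.33 and 2.51 CPM, and was called without that mouse (log2 1.59, adjusted p = 0.023) or without treated mouse 11 (adjusted p = 0.0413). Gsdmd, which encodes gasdermin D, lay between 31 and 39.7 CPM in WT and between 39.4 and 40.0 CPM in untreated Lipa-/- mice at 12-weeks, with a log2 difference of 0.14 (95% interval -0.32 to 0.59), and of -0.16 (-0.61 to 0.29) at 34-weeks with overlapping groups.

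Both genes of cytosolic DNA sensing rose. Cgas, which encodes the enzyme that makes cyclic GMP-AMP on DNA, was at 0.161, 0.287 and 0.105 CPM in WT mice and at 2.06, 1.59 and 3.64 CPM in untreated Lipa-/- mice at 12-weeks. It rose 12.7-fold (log2 3.67 ± 0.50, adjusted p = 2.27e-05) and 5.35-fold at 34-weeks (log2 2.42 ± 0.45, adjusted p = 0.000286). The 12-weeks fold of Cgas rests on 3, 6 and 2 reads in the WT mice. Of its 31-base stretches 35.9% were shared, chiefly with the antisense transcript Gm68924. Sting1, which encodes the receptor of cyclic GMP-AMP, was at 1.13, 2.30 and 1.05 CPM in WT mice and at 5.82, 6.68 and 9.58 CPM in untreated Lipa-/- mice at 12-weeks, and rose 4.90-fold and 5.42-fold. The groups of both genes were apart at each time point.

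Of the NOD receptors, which sense fragments of bacterial peptidoglycan, Nod2 rose 5.33-fold at 12-weeks (log2 2.41 ± 0.64, adjusted p = 0.00622) and 4.56-fold at 34-weeks. Its level was low, between 0.0590 and 0.234 CPM in the 6 WT mice and between 0.566 and 0.893 CPM in the 6 untreated Lipa-/- mice. Nod1, which is expressed widely outside the immune system, differed by 0.71 (adjusted p = 0.0113) and 0.62 (adjusted p = 0.0199) on the log2 scale, under the fold threshold, with no overlap at either time point. Ripk2, the kinase that carries the signal of both receptors, differed by 0.48 (95% interval 0.02 to 0.95) and 0.28 (-0.19 to 0.74).

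Levels between genes were compared per transcript length, in the deposited TPM, a value scaled to transcript length and library size. In WT livers Gsdmd had the highest median TPM of the 33 genes, 22.7 at 12-weeks and 25.7 at 34-weeks, followed by Irak2 and Irak1 at 12-weeks and by Irak1 and Irak2 at 34-weeks. Cd14 was in place 15 and 14, with medians of 0.974 and 1.79 TPM. In untreated Lipa-/- livers Cd14 had the highest median, 109 and 169 TPM, above Gsdmd with 36.7 and 43.8 TPM, and the ranges of both genes were apart. Pycard and Casp4 came next with medians of 29.3 and 25.9 TPM at 12-weeks and of 42 and 29.8 TPM at 34-weeks, and neither differed from Gsdmd beyond the spread at 34-weeks. Nod2 was in the last place or the one before it in every group but the treated mice at 12-weeks, with medians between 0.0231 and 0.273 TPM. Treated livers had Gsdmd, Irak2 and Pycard in front at 12-weeks and Gsdmd, Irak1 and Irak2 at 34-weeks, with Cd14 at medians of 1.81 and 2.20 TPM.

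**Figure D3:**
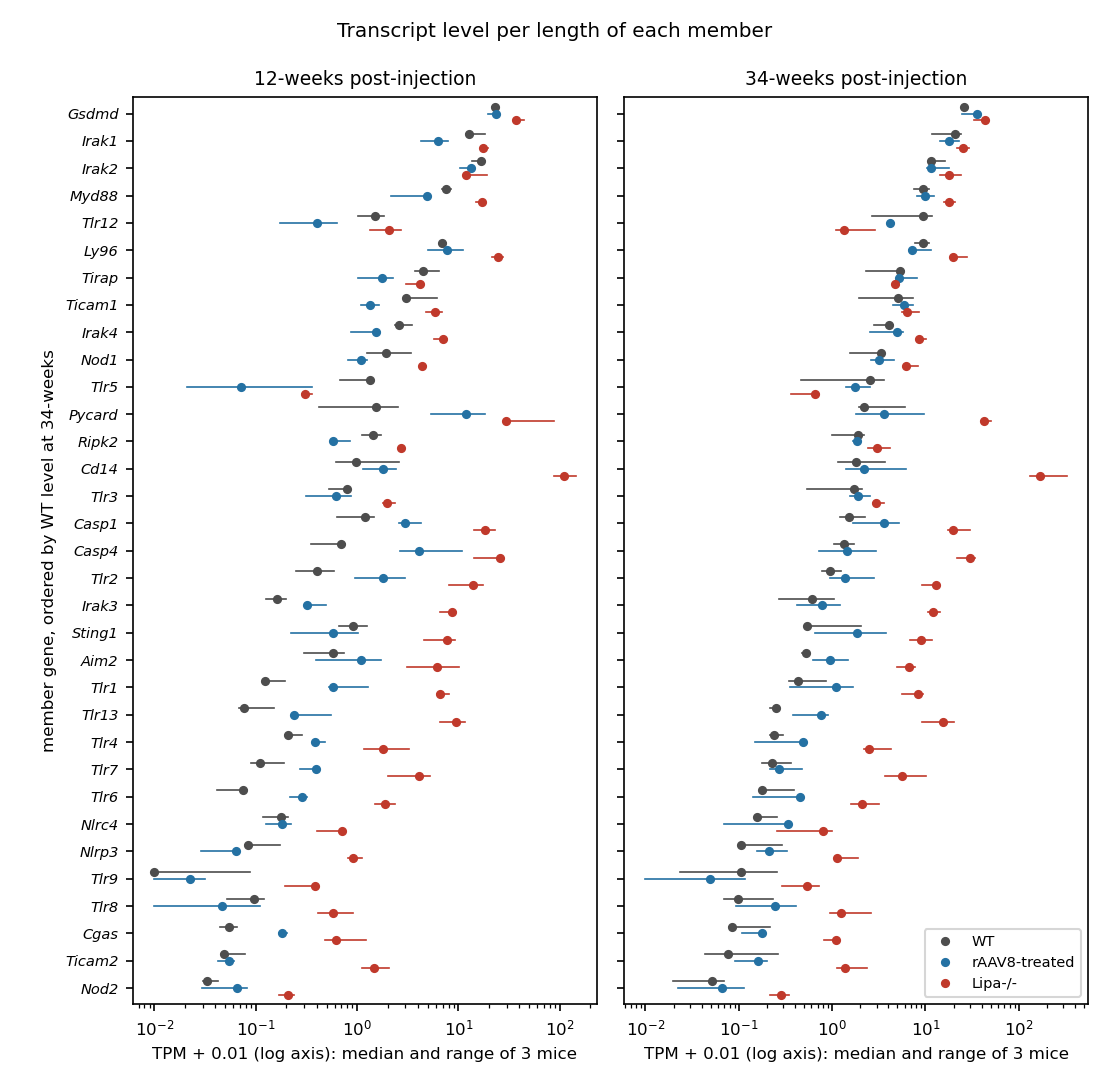
Points give the median TPM (+ 0.01, log axis) of 3 mice and lines their range, at 12-weeks (left) and 34-weeks (right), with the genes ordered by their WT level at 34-weeks. Cd14 moves from the middle of the order in WT mice (0.974 and 1.79 TPM) to the top in untreated Lipa-/- mice (109 and 169 TPM).

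Since many of these genes are made by macrophages, each was also set against the summed CPM of Csf1r, Adgre1 and Ptprc in the same mouse, as a description with no test. That sum lay between 26.2 and 41.6 CPM in WT and between 186 and 240 CPM in untreated Lipa-/- mice at 12-weeks, and between 44.1 and 86.3 CPM and between 130 and 219 CPM at 34-weeks. Relative to it 13 of the 33 genes were higher in untreated Lipa-/- than in WT mice at both time points, against 7.71% of all tested genes, and 15 were lower at both, against 84.0% of all. Among the genes that were higher, the largest differences of this ratio were those of Cd14, 3.36 and 4.21 on the log2 scale, Tlr13 with 3.30 and 3.39, Irak3 with 2.49 and 2.13, and Casp4 with 2.29 and 2.10. Tlr1, Tlr2, Tlr6, Tlr7, Ticam2, Aim2, Pycard, Casp1 and Cgas were also higher at both, and Tlr4, Tlr8, Nlrp3, Nod2 and Sting1 changed sign between the time points. Set against all 10 macrophage markers, of which Lyz2 made up between 77.2% and 89.1% in untreated Lipa-/- mice and between 28.6% and 64.9% in WT mice, Cd14 (0.75 and 2.10) and Tlr13 (0.70 and 1.27) were higher at both time points and 30 of the 33 genes were lower. The share of all tested genes was not counted for this sum, which itself rose in untreated Lipa-/- mice. The count of 30 therefore says nothing particular about these genes.

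**Figure D4:**
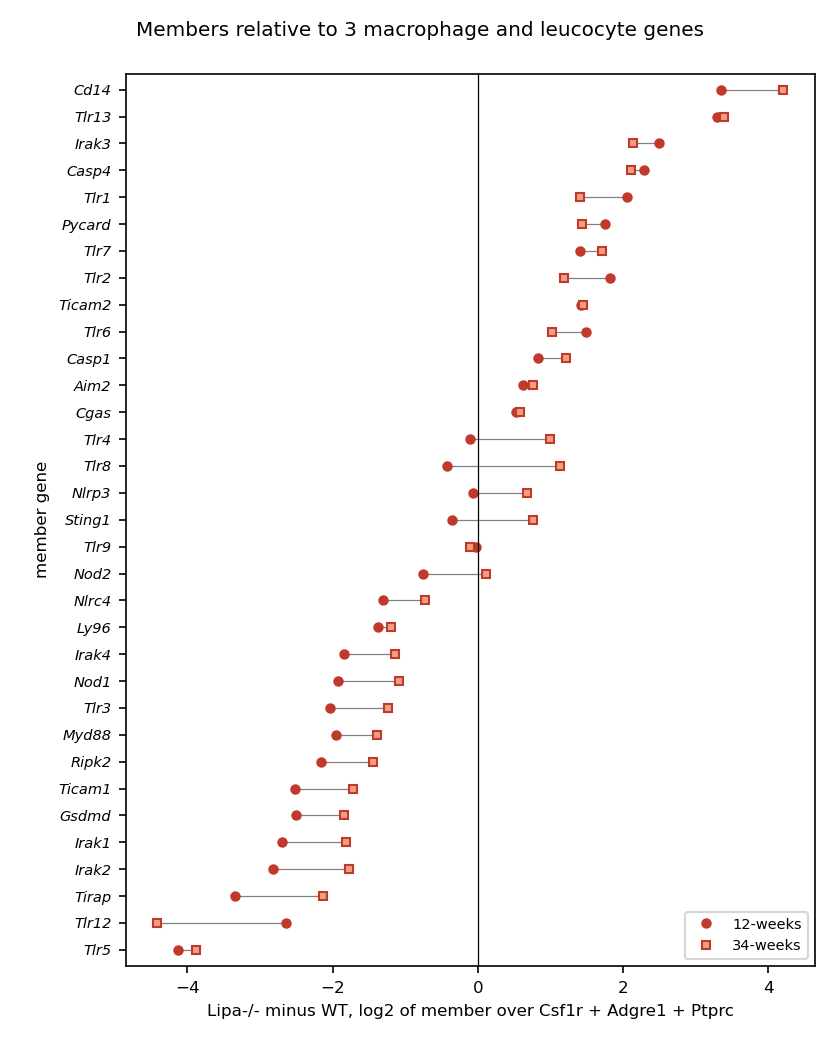
Points give, for each gene, the mean log2 ratio of its CPM to the summed CPM of Csf1r, Adgre1 and Ptprc in untreated Lipa-/- mice minus that in WT mice, at 12-weeks (circles) and 34-weeks (squares). Cd14 and Tlr13 lie furthest to the right (3.36 and 4.21, 3.30 and 3.39), and Tlr5 (-4.13 and -3.88) and, at 34-weeks, Tlr12 (-4.42) furthest to the left.

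The other genes of these pathways are given by counts in untreated Lipa-/- against WT mice. Of all tested genes 20.2% were higher at 12-weeks and 20.5% at 34-weeks, and 9.06% and 15.7% were lower. Of 9 genes of TLR trafficking and ligand transfer 6 were higher at 12-weeks and 4 at 34-weeks, and none lower, and Cd180, an inhibitory relative of TLR4, led at both (log2 4.99 and 3.77). Of 20 genes of downstream signalling 6 were higher at each time point, not all of them the same genes, with 1 and 2 lower; Relb, a subunit of NF-kB, was the highest (3.60 and 3.00) and Chuk, which encodes the kinase IKK-alpha, the lowest (-1.20 and -1.64). Of 12 negative regulators 8 and 5 were higher and none was lower. Tnip3, an inhibitor of NF-kB, led these, with 0 reads in all WT mice at 12-weeks and between 2.41 and 4.23 CPM in untreated Lipa-/- mice.

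Among the partners and substrates of inflammasomes 9 of 19 tested genes were higher at 12-weeks and 8 at 34-weeks, with 0 and 2 lower. Panx1, a channel that releases ATP, had the highest log2 fold change (4.02 and 3.92) and Nlrp6, a sensor of the gut epithelium, the lowest (-1.12 at 34-weeks). The interleukin precursor genes Il1b and Il18 were looked up after their values were seen and were not called: Il1b differed by -0.07 and 0.75 on the log2 scale and Il18 by -0.44 and -0.91. Il1a, also an interleukin gene of this list, went the other way. It was at 2.79, 3.73 and 3.14 CPM in WT and at 7.45, 8.74 and 4.36 CPM in untreated Lipa-/- mice at 12-weeks. At 34-weeks the values were 2.30, 1.89 and 2.80 CPM and 7.50, 7.23 and 3.90 CPM, with no overlap at either time point. Of 5 tested NOD partners 2 were higher and 2 lower at each time point, with Card9, an adaptor of myeloid cells, the highest (4.54 and 4.23), and with Xiap, a ubiquitin ligase of NOD2 signalling, the lowest at 12-weeks (-1.17) and the transporter gene Slc46a3 at 34-weeks (-1.42). Of 7 other nucleic acid sensors 2 were higher and 1 lower at 12-weeks, and 0 and 1 at 34-weeks, with Ifi204 at 1.9 at 12-weeks and Mavs, the adaptor of RNA sensing, at -1.34 and -1.44. The shares of all tested genes at the 2 time points were 20.2% and 20.5% higher, and 9.06% and 15.7% lower.

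Treated Lipa-/- mice were compared with WT and with untreated Lipa-/- mice labelled with the same time point, so that the comparisons share mice. At 12-weeks 12 of the 33 genes were still higher than in WT mice and 2 were lower, against 13.6% and 12.0% of all tested genes, and 17 were lower than in untreated mice and none higher, against 25.3% and 16.2%. The median log2 fold change of the 33 genes was 0.53 from WT and -1.16 from untreated mice, beside 0.06 and -0.19 over all tested genes. In 15 genes every treated mouse lay above every WT mouse and in 7 below, against 27.7% and 24.8% of all tested genes, and in 21 genes every treated mouse lay below every untreated one, against 32.8%. Scaling changed the split against WT mice: it was 12 higher and 2 lower in the main fit, 11 and 4 with total counts, and 4 and 5 with limma on log2(TPM + 0.5). The median of the 33 genes against WT mice was 0.13 with total counts and 0.02 with limma, where that of all tested genes was -0.33 with either, and against untreated mice it was -2.06 and -1.63, beside -1.05 and -0.83 over all tested genes. With limma, in which low genes change less, the calls over WT mice were lost for Tlr1, Tlr4, Tlr6, Tlr7, Tlr13, Irak3, Aim2 and Cgas. Summed macrophage markers lay between 605.5 and 2372 CPM in treated mice at 12-weeks, where the WT mice lay between 75.4 and 174.8 CPM, and 7 of the 10 macrophage markers, 6 of the 7 markers of lipid-associated macrophages, 4 of the 6 tested markers of T and NK cells and 1 of the 9 neutrophil markers were called higher than in WT mice. Their part in these differences was not tested.

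Of the 21 genes raised in untreated mice at 12-weeks, 9 were in treated mice both above WT and below untreated mice: Tlr1, Tlr2, Tlr4, Tlr6, Tlr7, Tlr13, Irak3, Aim2 and Casp1. Tlr13 was at 1.94, 3.21 and 1.61 CPM in treated mice, 3.68 lower than in untreated mice on the log2 scale (adjusted p = 4.23e-06) and 2.42 higher than in WT mice (adjusted p = 0.00311). Irak3 was at 1.75, 2.01 and 1.69 CPM, with differences of -3.46 (adjusted p = 3.68e-06) and 1.88 (adjusted p = 0.00521). All 3 treated mice lay between the ranges of the other groups for both genes. Tlr2 was at 18.5, 7.77 and 4.98 CPM, mouse 10 being close to the lowest untreated mouse, with differences of -1.58 (adjusted p = 0.00939) and 2.90 (adjusted p = 0.00252). Tlr4 was at 4.08, 2.12 and 2.76 CPM, overlapping the untreated mice. Its call against WT mice (log2 1.52, adjusted p = 0.0186) was lost without WT mouse 1 (0.0583), WT mouse 3 (0.0836) or treated mouse 10 (0.101), and that against untreated mice (-1.16, adjusted p = 0.0303) without Lipa-/- mouse 9 (0.159), treated mouse 11 (0.113) or treated mouse 12 (0.0706), adjusted p in parentheses.

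Cgas, Pycard and Casp4 remained above WT mice and were not called against untreated mice at 12-weeks. Casp4 was at 19.4, 5.98 and 4.14 CPM in treated mice 10, 11 and 12, 15.4-fold above WT mice (log2 3.94 ± 0.65, adjusted p = 0.00195), and its log2 difference from untreated mice was -1.12 (adjusted p = 0.0881). Pycard was at 24.6, 11.2 and 6.98 CPM, with differences of 3.39 from WT (adjusted p = 0.0033) and -1.11 from untreated mice (adjusted p = 0.11). Mouse 10 was the highest of the treated mice for both genes and within the range of the untreated mice. Without treated mouse 10 both genes were called lower than in untreated mice, Casp4 by -2.09 (adjusted p = 0.00504) and Pycard by -1.77 (adjusted p = 0.0325). The summed macrophage markers of that mouse were 2372 CPM, where the lowest treated mouse was at 605.5 CPM, and whether this bears on these genes was not tested. Cgas was at 1.46, 1.14 and 1.15 CPM, with differences of 2.70 from WT (adjusted p = 0.00287) and -0.96 from untreated mice (adjusted p = 0.0635), and was called against untreated mice without Lipa-/- mouse 8 (log2 -1.19, adjusted p = 0.0392), with upper-quartile scaling (-1.06, adjusted p = 0.0458) and with total counts (-1.85, adjusted p = 0.00186). With limma its difference from WT mice was 0.31 and not called (adjusted p = 0.202).

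A further 6 genes, Cd14, Ticam2, Sting1, Nlrp3, Tlr8 and Tlr9, were lower in treated than in untreated mice at 12-weeks and were not called against WT mice. Cd14 was at 7.09, 3.75 and 2.91 CPM in treated mice, 29.1-fold below untreated mice (log2 -4.86 ± 0.67, adjusted p = 2.96e-05). Against WT mice it differed by 0.92 (95% interval -0.40 to 2.23), and was called when WT mouse 2, with 4.69 CPM the highest of its group, was left out (log2 1.89, adjusted p = 0.0391). Nlrp3 was at 0.486, 0.109 and 0.383 CPM, 3.27 lower than in untreated mice on the log2 scale (adjusted p = 0.00021) and -0.61 from WT mice, whose range it overlapped. Sting1 was at 2.23, 1.14 and 0.843 CPM, with a difference of -2.41 from untreated (adjusted p = 0.000562) and of -0.12 from WT mice. Ticam2 and Tlr8 differed from untreated mice by -4.01 and -2.62 (adjusted p = 2.36e-05 and 0.00519). Tlr9 had 0, 2 and 1 reads in treated mice, and the ratio of untreated to treated reads, scaled to library size, was 12 with an exact interval from 3.94 to 59.7. The Tlr9 call against untreated mice was lost without treated mouse 10 (adjusted p = 0.053). The remaining 3 of the 21 genes, Ly96, Nlrc4 and Nod2, were called in neither comparison.

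Tlr5 and Tlr12 were lower in treated than in WT mice at 12-weeks. Tlr5 was at 0.0972, 0.380 and 1.30 CPM in treated mice, each below the lowest WT mouse (log2 -2.43 ± 0.62, adjusted p = 0.00928), with a 13.4-fold range between these mice. Against untreated mice Tlr5 differed by -0.79 (adjusted p = 0.298), and by -1.98 (adjusted p = 0.0275) without treated mouse 12. Tlr12 was at 1.07, 1.79 and 3.53 CPM, with differences of -1.20 from WT (adjusted p = 0.0403) and -1.27 from untreated mice (adjusted p = 0.0202). The Tlr12 call against WT mice was lost without WT mouse 1 (0.0883), WT mouse 3 (0.114), treated mouse 10 (0.13) or treated mouse 11 (0.114), and that against untreated mice without Lipa-/- mouse 5 (0.0906), treated mouse 10 (0.0772) or treated mouse 11 (0.0706), adjusted p in parentheses. Irak4 was the other gene lower than in untreated mice (log2 -1.24, adjusted p = 0.00044) and was not called against WT mice (-0.41). Myd88 and Ticam1, at -0.94 and -0.99 from untreated mice, lay just inside the fold threshold; Myd88 passed it without treated mouse 12 (-1.20) and Ticam1 without Lipa-/- mouse 9 (-1.16) or treated mouse 10 (-1.16), as it did against WT mice (main difference -0.88) without WT mouse 1 (-1.05) or treated mouse 10 (-1.08).

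**Figure D5:**
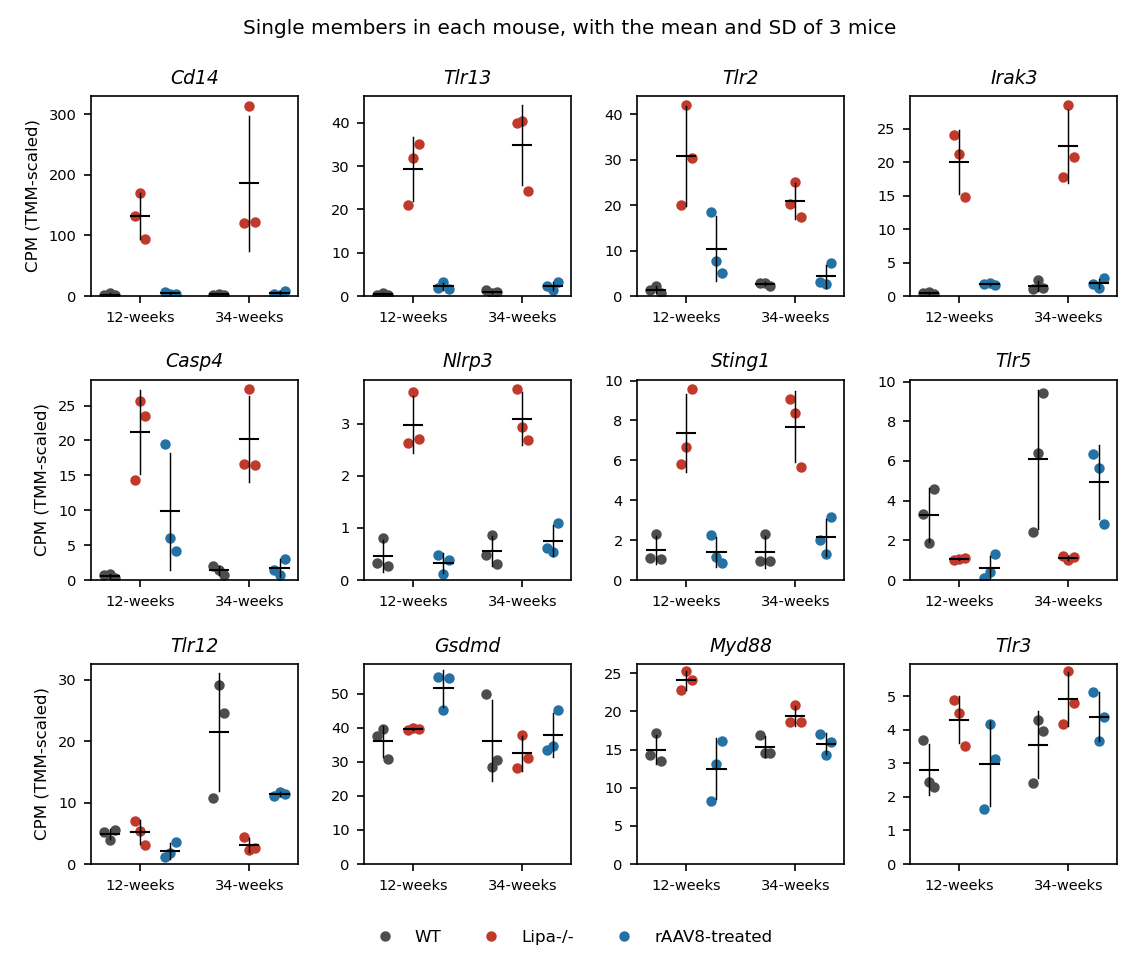
Each panel shows 1 gene in CPM scaled by the trimmed mean of M-values (TMM), with a point per mouse and the mean and SD of 3 mice as bars, for WT (grey), untreated (red) and treated (blue) Lipa-/- mice. The treated mice are near WT mice for Cd14 at both time points, whereas Casp4 at 12-weeks spreads from 4.14 to 19.4 CPM and Tlr12 is low in untreated mice at 34-weeks.

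At 34-weeks none of the 33 genes was called between treated Lipa-/- and WT mice by edgeR, DESeq2 or limma, where 0.220% of all tested genes were called by edgeR. Unadjusted p was under 0.05 for 4 genes. The log2 differences ran from -1.27 for Tlr9 to 1.59 for Tlr8 with a median of 0.27, beside 0.00 over all tested genes, and 27 were above 0 and 6 below. Without treated mouse 12 the median was -0.02, and Cd14 (-0.30) and Casp4 (-0.39), at 0.59 and 0.34 with all mice, were below 0. This does not show that the groups were alike: the 95% interval lay within 1 log2 unit of 0 for 11 genes, among them Myd88, Ticam1, Irak1, Irak2, Irak4, Gsdmd, Nod1 and Tlr3, and reached beyond it for 22. Tlr13 was at 2.40, 1.42 and 3.19 CPM in treated and at 1.30, 0.670 and 0.817 CPM in WT mice, with no overlap and a difference of 1.37 (95% interval 0.51 to 2.22, adjusted p = 0.404). Casp1 was at 3.90, 2.24 and 5.64 CPM in treated and at 2.12, 2.21 and 1.83 CPM in WT mice, again with no overlap and a difference of 0.94 (95% interval 0.20 to 1.68, adjusted p = 0.66). These were the 2 genes of the 33 in which every treated mouse lay above every WT mouse, against 4.78% of all tested genes. The summed macrophage markers lay between 199.1 and 545.1 CPM in treated mice, and 5 of the 7 markers of lipid-associated macrophages were still called higher than in WT mice.

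Against untreated mice of 34-weeks, 19 of the 33 genes were lower in treated mice and 2 were higher, where 18.6% and 12.8% of all tested genes were lower and higher. The median log2 fold change was -1.82, beside 0.03 over all tested genes, and in 22 genes every treated mouse lay below every untreated one, against 28.5%. Cd14 was at 2.48, 2.02 and 7.98 CPM in treated mice, a 44.2-fold difference (log2 -5.47 ± 0.68, adjusted p = 9.71e-06). Tlr13, Irak3, Casp4 and Tlr7 followed with log2 differences of -3.88, -3.56, -3.54 and -3.33, each with no overlap. Of the 17 genes lower at 12-weeks 15 were lower at 34-weeks too; Irak4 (-0.48) was not called and Tlr12 was higher. Cgas, Pycard, Casp4 and Nod2 were called lower at 34-weeks but not at 12-weeks. Tlr5, at 6.34, 5.63 and 2.84 CPM, and Tlr12, at 11.1, 11.7 and 11.3 CPM, were higher in treated than in untreated mice, by 2.14 (adjusted p = 0.00506) and 1.87 (adjusted p = 0.00162) on the log2 scale.

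Some of the 34-weeks calls against untreated mice rested on single mice. Tlr8 (log2 -1.69, adjusted p = 0.0336) was not called without Lipa-/- mouse 4 (0.106) or 5 (0.059) or treated mouse 11 (0.13) or 12 (0.0668), adjusted p in parentheses. Tlr9, with 38, 31 and 17 reads in untreated and 7, 0 and 3 reads in treated mice, a ratio of 6.96 with an exact interval from 3.61 to 15, was not called without Lipa-/- mouse 4 (0.0669) or 5 (0.0653) or treated mouse 11 (0.0951) or 12 (0.0742). Nod2 (log2 -1.61, adjusted p = 0.0352) was not called without Lipa-/- mouse 4 (0.065) or 5 (0.0889) or treated mouse 9 (0.0963) or 11 (0.129). Ly96 (-0.86) lay inside the fold threshold and passed it without Lipa-/- mouse 4 (-1.06) or treated mouse 12 (-1.19).

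Among the other pathway genes in treated mice, 2 of the 9 trafficking genes, 2 of the 20 downstream genes, 1 of the 12 negative regulators, 6 of the 19 inflammasome partners, 1 of the 5 NOD partners and 1 of the 7 nucleic acid sensors were higher than in WT mice at 12-weeks, where 13.6% of all tested genes were. Lower were 1, 5, 1, 1, 0 and 2 of them, where 12.0% of all tested genes were. At 34-weeks none of those tested was called by edgeR.

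Between the time points WT mice differed by 1 of the 33 genes, untreated Lipa-/- mice by 0 and treated mice by 10. Per the study, most untreated Lipa-/- mice of the 34-weeks group did not live to that time. Of all tested genes 0.323% were called in WT and 0.495% in untreated mice, and 17.5% were higher and 14.5% lower at 34-weeks in treated mice. Unadjusted p was under 0.05 for 6 genes in WT mice, for 0 in untreated and for 17 in treated mice, and DESeq2 called 2 genes in WT mice and 0 in untreated ones. The WT gene was Tlr12, 2.12 higher at 34-weeks on the log2 scale (adjusted p = 0.0392), from between 3.97 and 5.55 CPM to between 10.7 and 29.1 CPM with no overlap. This call was lost without WT mouse 1, 2 or 3 of 12-weeks, WT mouse 2 or 3 of 34-weeks, Lipa-/- mouse 8 of 12-weeks or 6 of 34-weeks, or treated mouse 11 of either time point. Between the time points the Tlr12 difference of untreated Lipa-/- from WT mice moved by -2.87 (adjusted p = 0.0723), and none of the 33 genes was called in that test by edgeR, where 0.0619% of all tested genes were. Unadjusted p was under 0.05 for 5 of the 33 genes in it, and DESeq2 called 1, as did edgeR without Lipa-/- mouse 9 of 12-weeks or WT mouse 1 of 34-weeks. In treated mice Tlr5 (3.03, adjusted p = 0.00189), Tlr12 (2.40, adjusted p = 0.00146) and Ticam1 (1.07, adjusted p = 0.00902) were higher at 34-weeks, and Casp4 (-2.49), Pycard (-1.9), Tlr4 (-1.54), Cgas (-1.30), Tlr2 (-1.23), Tlr7 (-1.18) and Casp1 (-1.04) lower. This split of 3 higher and 7 lower was 12 and 1 with total counts and 9 and 1 with limma, while the median change of all tested genes was 0.08 in the main fit and 0.71 with total counts. The difference of treated from WT mice was called as changed between the time points for 9 of the 33 genes, 8 of them to a lower value, against 18.4% of all tested genes in either direction. Of the 10 calls in treated mice between the time points the count fell to 4 without mouse 10 of 12-weeks or mouse 9 of 34-weeks, and to 5 without mouse 11 of 34-weeks.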

How the data were processed

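Poly(A) RNA with ERCC spike-in from the livers of 18 mice had been sequenced. Per the study's methods, the authors used Salmon to quantify transcripts and added these up per gene. The deposited table gives estimated counts, TPM and mean transcript lengths per gene and mouse, of which 19.4% of the count values were not whole. The authors' processing notes name R 4.3.0, DESeq2 1.40.1 and GRCm39. A deposited table of the authors' comparisons, with log2 fold changes and adjusted p-values, was not used.

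The estimated counts were rounded, and genes with more than 100 reads over all mice were fitted in 1 model with 6 groups (edgeR 4.0.16, quasi-likelihood test, two-sided, TMM factors between 0.587 and 1.69, R 4.3.3), with p adjusted after Benjamini-Hochberg over 14533 genes and a call at adjusted p under 0.05 and an absolute log2 fold change over 1. The study's methods give the thresholds. CPM values are scaled by TMM. Each mouse is a separate animal, and p-values measure the spread between mice. Rounded counts simulated with known changes were used to test the scripts. Alternatives were upper-quartile and total-count scaling, DESeq2 1.42.0 with and without gene-length offsets, no filter or filterByExpr, fits of only the groups compared, other thresholds, limma 3.58.1 on log2(TPM + 0.5), a replicate block, and leaving out each mouse. A library's floor was 3 reads, and intervals of read ratios are exact and cover counting error only. TPM served for levels between genes. Mouse numbers do not pair the samples, since livers were taken at sacrifice and the time points carry different study codes. Same-numbered WT mice of the time points correlated at 0.0763, -0.24 and 0.46, values that cannot settle pairing by themselves. The replicate block treats equal numbers as pairs all the same.

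The 33 genes, the 74 pathway genes and the 80 marker genes were chosen with earlier results of these data known. All 33 genes are named; of each pathway list, the called genes with the highest and lowest log2 fold change in untreated Lipa-/- against WT mice and any gene called in treated against WT mice at 34-weeks; marker lists are given by counts and sums. Promoter sequences are from RefSeq (GRCm38.p6), and gene positions and shared 31-base stretches from an annotation of GRCm39.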

Additional observations from a re-analysis of the deposited data

Results flagged for a closer look

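For 9 of the 33 genes the difference of treated Lipa-/- from WT mice was called as not the same at the 2 time points, by the interaction term of the edgeR fit, where 18.4% of all tested genes were called in this test. That share was itself unstable. Of all tested genes 2675 were called in the main fit, but 6 with only the groups compared and 0 at adjusted p under 0.01. Without WT mouse 1 of 12-weeks 65 were called, and without WT mouse 3 of 12-weeks 3 were. The value given is the log2 difference at 34-weeks minus that at 12-weeks. It was -3.60 for Casp4 (adjusted p = 0.0243), -2.79 for Pycard (0.0389), -2.51 for Cgas (0.0274), -2.44 for Tlr6 (0.026), -2.19 for Tlr2 (0.04), -2.17 for Tlr1 (0.0348), -1.97 for Tlr7 (0.0332) and -1.58 for Irak3 (0.0496), all of them genes whose excess over WT was smaller at 34-weeks. Tirap was the exception with 1.12 (0.0405), from a difference of -0.80 at 12-weeks to 0.32 at 34-weeks. The split of 1 higher and 8 lower was 3 and 2 with total counts and 2 and 1 with limma. The calls of this test depended on single mice: 0 of the 33 genes were called without treated mouse 10 of 12-weeks, treated mouse 9 of 34-weeks, WT mouse 1 or 3 of 12-weeks or WT mouse 1 of 34-weeks, 2 without treated mouse 11 of 34-weeks, 5 without WT mouse 2 of 34-weeks, 6 without Lipa-/- mouse 4 of 34-weeks, and 13 without treated mouse 12 of 34-weeks. Time point and study code cannot be told apart. The summed macrophage markers of treated mice lay between 605.5 and 2372 CPM at 12-weeks and between 199.1 and 545.1 CPM at 34-weeks, and their part in these differences was not tested.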

How the results depend on the processing

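The number of the 33 genes called stayed within 1.5 times the main count under every alternative for untreated Lipa-/- against WT mice at both time points (22 and 20), for treated against untreated mice at 34-weeks (21), and at 0 for treated against WT mice and for untreated mice between time points. Treated against WT mice at 12-weeks gave 9 with limma (main 14), and treated against untreated mice at 12-weeks 30 with total counts and 26 with limma (main 17). WT mice between time points (main 1) gave 2 with DESeq2, with or without gene-length offsets, and 0 with total counts, limma, adjusted p under 0.01, only the groups compared and the replicate block. Treated mice between time points (main 10) gave 5 with only the groups compared, 4 at adjusted p under 0.01 and 4 with the replicate block. The change of untreated against WT mice (main 0) gave 1 with DESeq2, with gene-length offsets and without a filter. The change of treated against WT mice (main 9) gave 5 with total counts, 3 with limma and 0 with only the groups compared or at adjusted p under 0.01. Leaving out 1 mouse gave 19 to 22 and 20 to 21 for untreated against WT mice at 12-weeks and 34-weeks, 12 to 15 and 0 to 0 for treated against WT, 15 to 19 and 18 to 21 for treated against untreated, 0 to 1, 0 to 0 and 4 to 12 between time points for WT, untreated and treated mice, and 0 to 1 and 0 to 13 for the changes of untreated and treated against WT. Without Lipa-/- mouse 5, of another study code, 20 genes were called in untreated against WT and 16 in treated against untreated mice at 12-weeks. Apart from fits with fewer mice or a stricter threshold, the cause was not tested.

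No paired analysis was possible within a time point because the groups share no mouse numbers. Tlr5, Tlr6, Tlr8, Tlr9, Nlrp3, Nod2, Cgas and Ticam2, with at least 1 mouse at or under 3 reads, are limited by depth. Of values of single genes under the alternatives other than leaving out a mouse, 1835 kept direction and side of the threshold, 74 passed it anew, 35 no longer passed it, and 36 that were not called changed sign.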
